A study of Caenorhabditis elegans with 9 samples.

Results

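The pharynx of *Caenorhabditis elegans* is a muscular pump that draws in and grinds bacteria, and its muscle builds sarcomeres from its own set of proteins. The 6 genes described here are 4 contractile genes of that muscle and 2 transcription factors that govern it, taken by name from the deposited gene table, in which 40313 entries were listed. *myo-1* and *myo-2* encode the myosin heavy chains of the pharynx, *tnc-2* encodes its troponin C, the calcium sensor of the thin filament, and *tni-4* encodes its troponin I, the inhibitory subunit. *ceh-22* encodes an NK-2 class homeodomain factor that activates pharyngeal muscle genes, with *myo-2* as its classic target, and *pha-4* encodes the FoxA forkhead factor that specifies the pharynx and acts on its genes at many steps. All 6 genes had an entry of their own, not joined to a neighbor, and all 6 passed the filter on low values.

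Whole adult hermaphrodites of 3 genotypes were compared, with 3 libraries each: single mutants with the *m40* allele of *daf-1*, double mutants that carry the *mgDf90* allele of *daf-3* besides, written *daf-1*; *daf-3*, and N2, the wild type. All animals were synchronized by bleaching, raised at 16 °C to the L4 stage and kept at 25 °C for 25 h by the sample labels, and poly A+ RNA was sequenced from whole worms. DAF-1 is the type I receptor of the DAF-7 TGFβ pathway, and DAF-3 is the Co-SMAD that the pathway inhibits. In earlier work on reporter genes, DAF-3 was found to bind an enhancer of *myo-2* and to repress it in the pharynx. The comparisons asked how pharyngeal muscle transcripts stood when the receptor was mutant, and whether loss of *daf-3* changed that. The double mutants carry the *daf-1* allele too, and no *daf-3* single mutant was analysed here, so each effect of *daf-3* was read in the *daf-1* background.

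Values are FPKM, fragments scaled to transcript length and library size, and depth per library is unknown from them. Summed FPKM ranged between 748170 and 959313 per library. *daf-3* was at 0 or near 0 in the double mutants, at 0, 0.0147 and 0 FPKM, against 18.8 to 22.5 FPKM in N2. *daf-1* itself had 12.8 to 13.9 FPKM in *daf-1*, 13 to 14.5 FPKM in the double mutants and 21.6 to 23.7 FPKM in N2. The 3 comparisons share libraries, so they are not independent of each other. Replicates are called batches by the study, and equal numbers are taken here as the same batch. Batch 3 of the double mutants stood apart from the rest and was left out of the study's comparisons, so the comparisons here use 8 libraries, with all 9 given beside them. A gene passed the test at an adjusted p below 0.05 (limma, Benjamini-Hochberg adjustment over 13751 entries), and a DEG also differed at least 2-fold. Fold changes are on the log2(FPKM + 0.25) scale.

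In the 8 libraries, the contractile genes and the regulators followed different orders. All 4 contractile genes were about 2-fold higher in *daf-1* mutants than in N2. Double mutant replicate 1 lay near N2 of its batch, and double mutant replicate 2 lay above every N2 library and below every *daf-1* library for each of the 4. Neither regulator passed the test between *daf-1* and N2, and both were lower in the double mutants than in either other genotype. When the third double mutant library was included without the batch in the fit, none of the 6 genes passed in any comparison; with the batch as a block the 4 contractile genes passed in *daf-1* against N2 and no gene passed elsewhere. That library had the highest level of all 9 for each of the 6 genes, and the share of all entries highest there was not counted. At an unadjusted p below 0.05 the 4 contractile genes still exceeded N2 in *daf-1* with 9 libraries, as did 2070 of all 13907 entries. Worms were sequenced whole, and fewer cells of a type and less RNA per cell cannot be told apart.

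**Figure D1:**
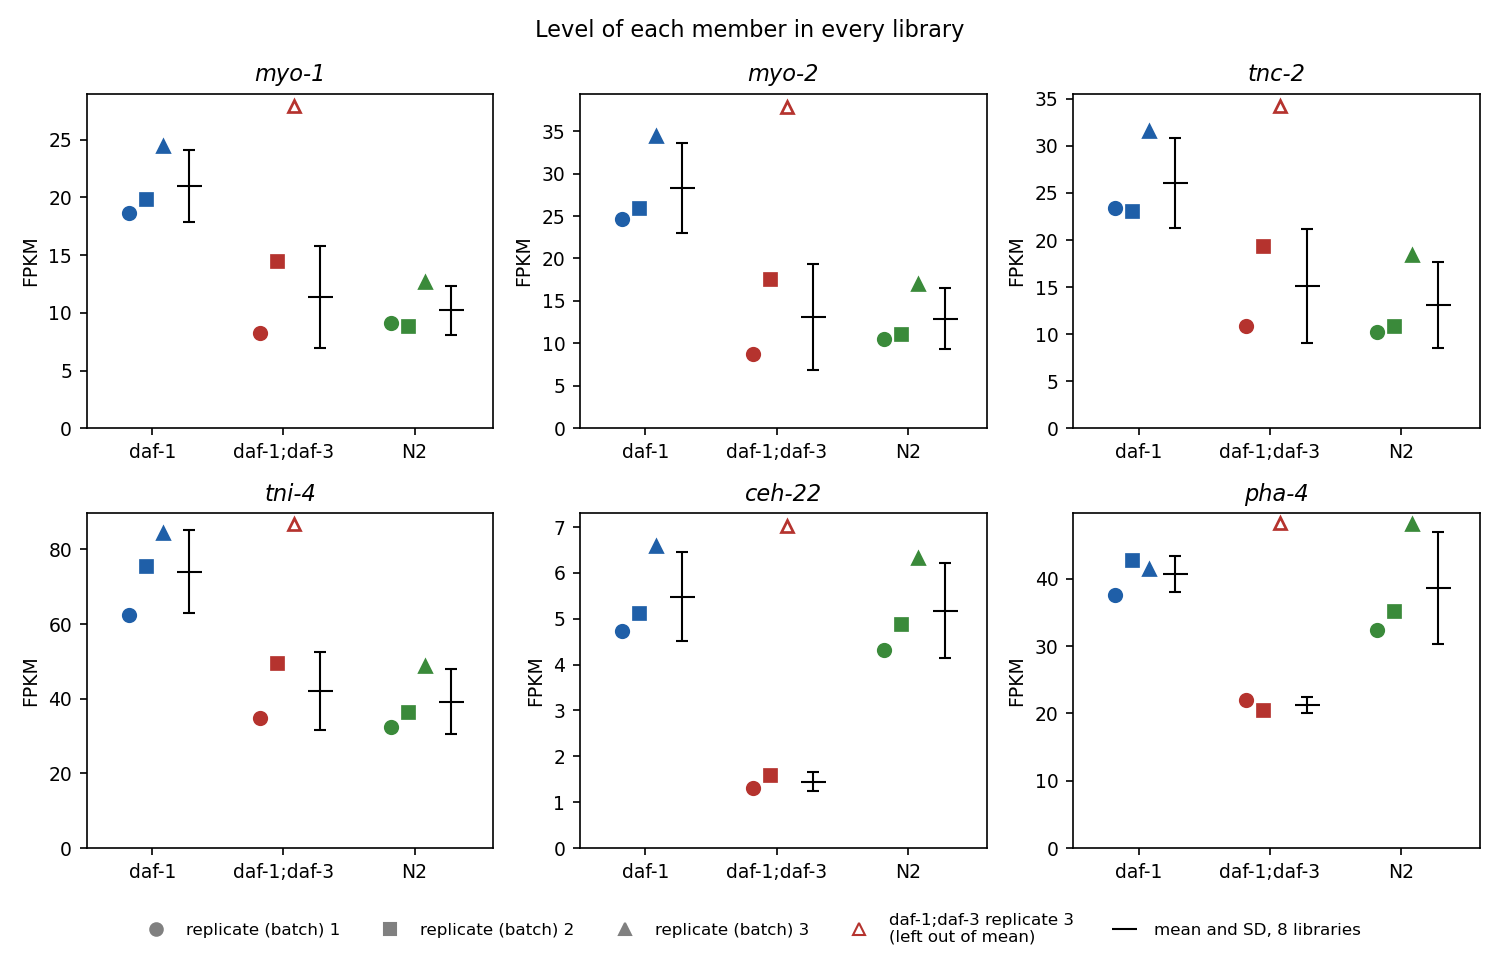
FPKM (vertical axes, linear, starting at 0) of the 6 genes in each of the 9 libraries, with *daf-1*, *daf-1*; *daf-3* and N2 along the horizontal axes. Symbols mark the batch, the open triangle is the double mutant library left out of the 8, and bars give the mean and SD over the 8; *myo-1* lies between 18.6 and 24.5 FPKM in *daf-1* and between 8.89 and 12.7 FPKM in N2, while *ceh-22* is lowest in double mutant replicates 1 and 2.

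*myo-1* lies on chromosome I (7258946 to 7267057, minus strand, WBcel235) and has 9 exons. It measured 18.6, 19.8 and 24.5 FPKM in *daf-1* replicates 1 to 3, 8.25, 14.5 and 27.9 FPKM in double mutant replicates 1 to 3, and 9.11, 8.89 and 12.7 FPKM in N2 replicates 1 to 3. Every *daf-1* library was above every N2 library, whereas the double mutants spread from below N2 to above *daf-1*. In the 8 libraries *myo-1* was higher in *daf-1* than in N2 (log2 fold change 1.03, SE 0.22, adjusted p = 0.0156), which made it a DEG. It was also higher in *daf-1* than in the double mutants (0.91, SE 0.25, adjusted p = 0.0243), short of 2-fold. The double mutants minus N2 gave 0.11 (95% interval -0.46 to 0.68, adjusted p = 0.81).

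*myo-2*, on the X chromosome (12468061 to 12475348, plus strand) with 12 exons, showed the same order over a wider span. Its levels were 24.6, 26 and 34.4 FPKM in *daf-1*, 8.71, 17.6 and 37.9 FPKM in the double mutants and 10.5, 11.1 and 17 FPKM in N2. All *daf-1* libraries exceeded all N2 libraries, and double mutant replicate 1 was the lowest library of the 9. *myo-2* was a DEG in *daf-1* against N2 (log2 fold change 1.14, SE 0.28, adjusted p = 0.0213) and against the double mutants (1.16, SE 0.31, adjusted p = 0.022). With the batch as a block in the 8 libraries the second value was 0.98 (adjusted p = 0.0231), just under 2-fold. Double mutants and N2 differed by -0.02 (95% interval -0.73 to 0.68).

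The troponin C gene *tnc-2* lies on chromosome II (10466852 to 10468358, plus strand) in 5 exons. It had 23.4, 23.1 and 31.5 FPKM in *daf-1*, 10.8, 19.4 and 34.3 FPKM in the double mutants and 10.2, 10.8 and 18.4 FPKM in N2. No *daf-1* library overlapped N2, and the third N2 library was close to the second double mutant library. *tnc-2* was a DEG in *daf-1* against N2 (log2 fold change 1.01, SE 0.27, adjusted p = 0.0296). Against the double mutants its log2 difference of 0.82 (SE 0.31) missed the threshold at an adjusted p = 0.0646. Its end overlaps *clec-143* on the opposite strand, which was at most 0.308 FPKM in any library.

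The troponin I gene *tni-4*, on chromosome IV (5204591 to 5207124, plus strand) with 4 exons, had the highest FPKM of the 4 contractile genes in every library. It reached 62.4, 75.5 and 84.3 FPKM in *daf-1*, 34.7, 49.5 and 86.9 FPKM in the double mutants and 32.3, 36.5 and 48.9 FPKM in N2. Again *daf-1* and N2 did not overlap. *tni-4* was higher in *daf-1* than in N2 (log2 fold change 0.92, SE 0.19, adjusted p = 0.0126) and than in the double mutants (0.82, SE 0.21, adjusted p = 0.02), both below 2-fold. Its last bases overlap *Y59E9AL.36* on the other strand, an entry with up to 58.1 FPKM, and the strand setting of the library was not given in the sources used here.

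Read together, 4 of the 6 genes passed as higher in *daf-1* than in N2, where 13% of all tested entries did, and 3 were DEGs, where 6.27% of entries were DEGs in that direction. None of the 6 passed as lower, against 15.6% of all entries. How many of all entries also lacked overlap between the *daf-1* and N2 libraries was not counted. The within-batch differences of the contractile genes from N2 were all positive: for *myo-1* the log2 difference was 1.01, 1.14 and 0.94 in batches 1, 2 and 3, for *myo-2* 1.21, 1.21 and 1.0, for *tnc-2* 1.18, 1.08 and 0.77, and for *tni-4* 0.94, 1.04 and 0.78. The calls depended on single libraries: 0 members passed without *daf-1* replicate 3, 0 without N2 replicate 2, 1 without N2 replicate 1, 2 without *daf-1* replicate 2 and 3 without *daf-1* replicate 1. With all 9 libraries the same 4 differences kept their size but none passed (adjusted p 0.0847 to 0.125, background 6.21%), and with all 9 libraries and the batch as a block the 4 passed again (adjusted p 0.0178 to 0.0393, background 9%).

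The regulators behaved differently. *ceh-22* lies on chromosome V (10671918 to 10675769, plus strand) in 8 exons. It was the lowest of the 6 genes, at 4.74, 5.12 and 6.58 FPKM in *daf-1*, 1.3, 1.59 and 7.01 FPKM in the double mutants and 4.33, 4.88 and 6.32 FPKM in N2. Its *daf-1* and N2 libraries interleaved, double mutant replicates 1 and 2 lay far below both, and double mutant replicate 3 lay above all. *ceh-22* did not pass between *daf-1* and N2 (log2 fold change 0.08, 95% interval -0.38 to 0.54, adjusted p = 0.769), an interval that excludes a 2-fold difference with 8 libraries but not with 9 (-1.09 to 1.26). In the double mutants it was a DEG, lower than in N2 by a log2 fold change of -1.67 (SE 0.23, adjusted p = 0.00232). The *daf-1* minus double mutant value was 1.75 (SE 0.23, adjusted p = 0.00336), also a DEG.

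*pha-4*, on chromosome V (20753052 to 20760317, plus strand) with 8 exons in its longest coding transcript, moved less. Its levels were 37.7, 42.9 and 41.5 FPKM in *daf-1*, 22.1, 20.5 and 48.3 FPKM in the double mutants and 32.5, 35.3 and 48.1 FPKM in N2. The *daf-1* libraries fell inside the N2 range, and double mutant replicates 1 and 2 lay below every other library. The *daf-1* minus N2 value was 0.09 (95% interval -0.23 to 0.42, adjusted p = 0.624). *pha-4* was lower in the double mutants than in N2 (log2 fold change -0.83, SE 0.16, adjusted p = 0.0098), and higher in *daf-1* than in the double mutants (0.93, SE 0.16, adjusted p = 0.00658), both short of 2-fold. Without double mutant replicate 2 the difference from N2 missed the threshold (-0.78, adjusted p = 0.0589).

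Against the double mutants, 5 of the 6 genes passed as higher in *daf-1*, where 17.7% of entries did, and *myo-2* and *ceh-22* were DEGs, where 11.2% of entries were DEGs in that direction. None passed as lower, against 19.3% of entries. The count was 2 without double mutant replicate 1 or without *daf-1* replicate 3 and 3 without *daf-1* replicate 2, whereas it was 6 without double mutant replicate 2 or without N2 replicate 3, where *tnc-2* joined. Between double mutants and N2, none passed as higher (background 7.49%), 2 passed as lower (background 8.9%) and 1 was a lower DEG (background 5.34%).

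With all 9 libraries, none passed as higher in *daf-1* than in the double mutants (background 0.813%, or 1.18% with the batch as a block), and none as lower in the double mutants than in N2 (background 0.848%, or 1.27% with the block). At an unadjusted limma p below 0.05 the counts without the block were 0 in both, beside 1063 and 848 of all 13907 entries. With the block 3 genes were higher in *daf-1* than in the double mutants, beside 2087 entries. Between double mutants and N2 with the block, 1 gene was lower and 2 were higher in the double mutants, beside 1182 and 1784 entries. The SE of *myo-1* in *daf-1* against N2 was 0.38 with 9 libraries and 0.22 with 8. In batch 3 alone, each of the 6 genes was lower in *daf-1* than in the double mutant, with log2 differences of -0.19 for *myo-1*, -0.14 for *myo-2*, -0.12 for *tnc-2*, -0.04 for *tni-4*, -0.09 for *ceh-22* and -0.22 for *pha-4*. In batches 1 and 2 all of these differences were positive, for example 1.69 and 1.54 for *ceh-22*.

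**Figure D2:**
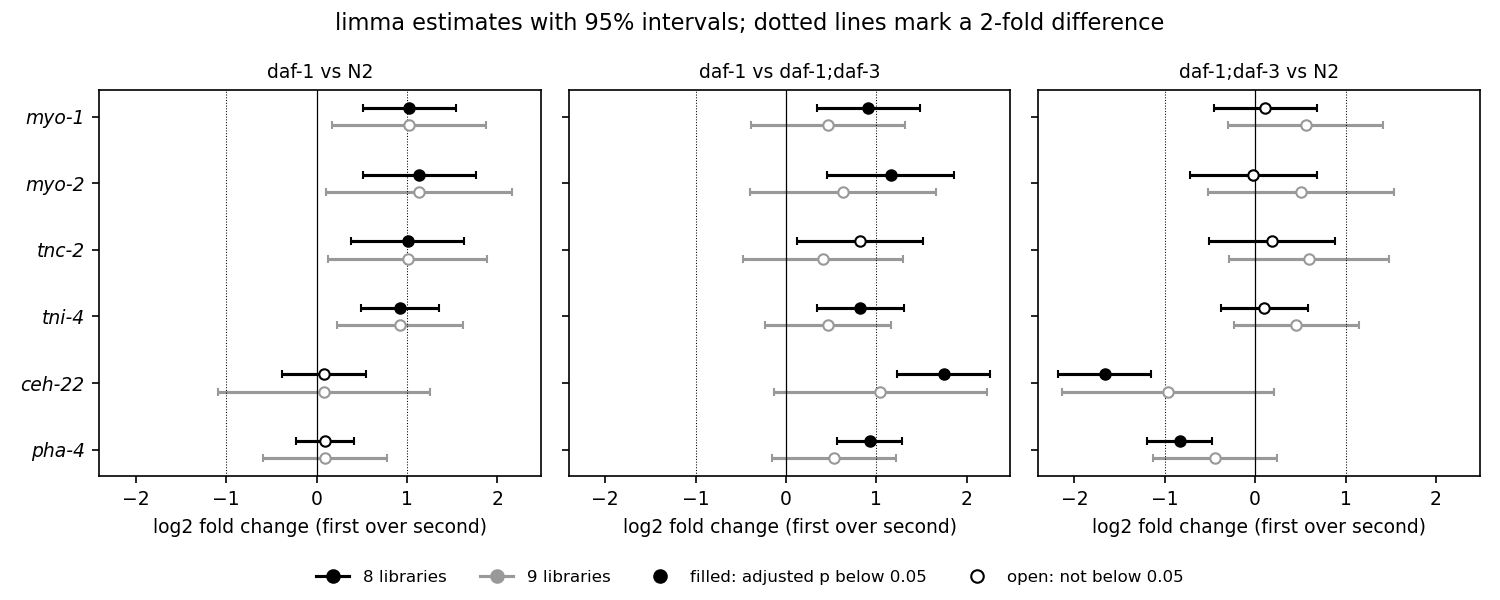
limma log2 fold changes (horizontal axes, first genotype over second) with 95% intervals for the 6 genes in 3 comparisons, black for 8 libraries and grey for 9, filled where the adjusted p was below 0.05. In black, the contractile genes sit at 0.92 to 1.14 for *daf-1* against N2 while *ceh-22* and *pha-4* sit at 0.08 and 0.09; every grey point is open.

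Batch 3 also ran high within the other genotypes. For each contractile gene and for *ceh-22*, replicate 3 was the highest library in all 3 genotypes, and for *pha-4* in 2 of the 3. The share of all entries with replicate 3 highest was not counted. Summed over the 4 contractile genes, the level was 129, 144 and 175 FPKM in *daf-1*, 62.5, 101 and 187 FPKM in the double mutants and 62.2, 67.4 and 97 FPKM in N2. The *daf-1* libraries stayed above N2 as a group, even though N2 replicate 3 was well above the other N2 libraries.

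Ratios within a library were also examined, a choice made after the values were seen. The mean log2 level of the 4 contractile genes minus that of the 2 regulators was 1.07, 1.03 and 1.21 in *daf-1*, 1.16, 1.86 and 1.17 in the double mutants and 0.15, 0.09 and 0.25 in N2. All 6 mutant libraries, double mutant replicate 3 included, lay above all 3 N2 libraries, and the mutant genotypes overlapped each other. The difference between group means was 0.94 for *daf-1* minus N2 and 1.23 for double mutants minus N2 over 9 libraries. No test is attached, since the score was built from genes chosen with results known.

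Single pairs are parts of the contractile minus regulator score, so they add no support to it. In *daf-1* the contractile levels were above N2 and the regulators near N2. In double mutant replicate 1 the contractile levels were near N2 replicate 1 (*myo-2* 8.71 against 10.5 FPKM, *tni-4* 34.7 against 32.3 FPKM). There the regulators were lower (*ceh-22* 1.3 against 4.33 FPKM, *pha-4* 22.1 against 32.5 FPKM). The *myo-2* to *ceh-22* ratio was 5.20, 5.07 and 5.23 in *daf-1*, 6.70, 11 and 5.40 in the double mutants and 2.43, 2.28 and 2.69 in N2. The *myo-1* to *pha-4* ratio was 0.494, 0.463 and 0.589 in *daf-1*, 0.374, 0.707 and 0.578 in the double mutants and 0.281, 0.252 and 0.264 in N2. Each of the 4 contractile genes had a higher ratio to *ceh-22* in all 6 mutant libraries than in every N2 library, a pattern held by 9.09% of the 12043 entries compared, and likewise to *pha-4*, where 8.3% of entries held it. Among genes outside the set, the pharyngeal troponin T gene *tnt-4* showed it to *ceh-22* but not to *pha-4*, and the myosin heavy chain gene *myo-5* to both. The body wall myosin gene *unc-54* also showed it to both regulators, and *pat-10* and *unc-27* showed it to neither. *myo-3* showed it to *ceh-22* in plain FPKM ratios, but not on the log2(FPKM + 0.25) scale, and not to *pha-4*.

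**Figure D3:**
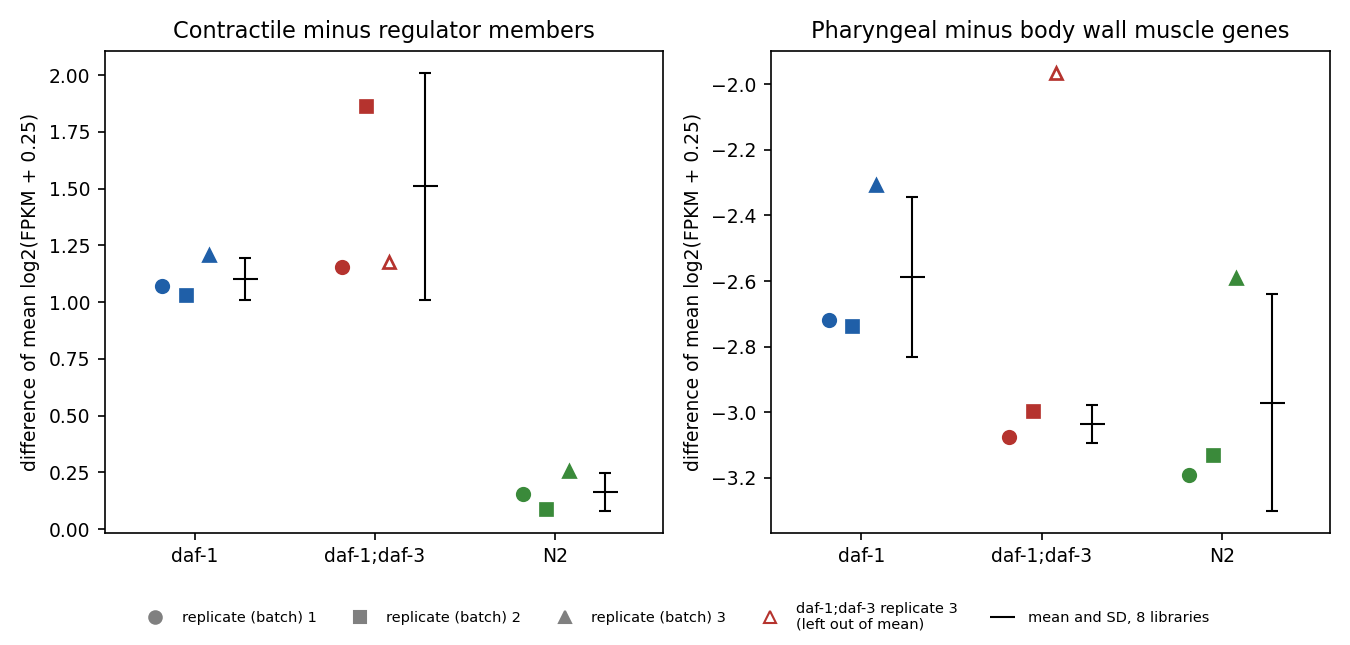
Differences of mean log2(FPKM + 0.25) within each library (vertical axes, linear, not starting at 0) for contractile minus regulator members, left, and for 4 pharyngeal minus 4 body wall muscle genes, right, by genotype; symbols and bars are as in the plot of FPKM by library. On the left the 6 mutant libraries lie between 1.03 and 1.86 and N2 between 0.09 and 0.25; on the right *daf-1* and N2 overlap.

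Within the contractile set the proportions were steadier. The *myo-1* to *myo-2* ratio averaged 0.744 ± 0.028 in *daf-1*, 0.837 ± 0.105 in the double mutants and 0.803 ± 0.06 in N2 (SD, n = 3 each). For *tnc-2* to *tni-4* the ratio averaged 0.352 ± 0.04 in *daf-1*, 0.366 ± 0.046 in the double mutants and 0.33 ± 0.042 in N2 (SD, n = 3 each). Over the 9 libraries the ranges of the 3 genotypes overlapped for both ratios. In the 8 libraries the *myo-1* to *myo-2* ratio of *daf-1* (0.712 to 0.764) lay below that of the double mutants (0.824 to 0.948), and the other ranges overlapped. The *ceh-22* to *pha-4* ratio was 0.126, 0.12 and 0.158 in *daf-1*, 0.0589, 0.0778 and 0.145 in the double mutants and 0.133, 0.138 and 0.131 in N2. Here the first 2 double mutant libraries were lowest, since *ceh-22* was reduced more than *pha-4*.

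Body wall muscle, which moves the animal, uses other isoforms of the same proteins, and these were set beside the pharyngeal ones. *unc-54*, its major myosin heavy chain, had 298, 370 and 270 FPKM in *daf-1*, 195, 367 and 293 FPKM in the double mutants and 174, 181 and 166 FPKM in N2, and it was higher in *daf-1* than in N2 (log2 fold change 0.83, SE 0.21, adjusted p = 0.0246). *myo-3*, its minor myosin heavy chain, had 20.1, 22.6 and 29.7 FPKM in *daf-1*, 4.0, 9.28 and 31.6 FPKM in the double mutants and 10.6, 10.5 and 18.2 FPKM in N2. *myo-3* was a DEG between *daf-1* and the double mutants (1.92, SE 0.36, adjusted p = 0.00816) and missed the threshold against N2 (0.90, SE 0.32, adjusted p = 0.0641).

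The troponin counterparts differed among themselves too. *pat-10*, the body wall troponin C gene, had a log2 fold change of 0.40 in *daf-1* over N2 (SE 0.12, adjusted p = 0.0393), and the troponin I gene *unc-27* one of 0.44 (SE 0.14, adjusted p = 0.0454). *unc-27* passed as higher in the double mutants than in N2 as well (0.62, SE 0.15, adjusted p = 0.0275), where no contractile member passed. It was not tested against the members. In batch 3, outside those 8 libraries for the double mutants, the log2 difference from N2 was 0.01 for *unc-27* and 0.83 to 1.14 for the contractile members. The troponin I gene *tni-3* was a DEG in *daf-1* against N2 (1.08, SE 0.14, adjusted p = 0.00189), and with 9 libraries it still passed (adjusted p = 0.00313). *tni-1* missed the threshold against N2 (0.30, SE 0.31, adjusted p = 0.478).

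As a share of the summed FPKM of the 4 myosin heavy chain genes, *myo-1* and *myo-2* made up 12%, 10.4% and 16.4% in *daf-1*, 7.87%, 7.84% and 16.8% in the double mutants and 9.61%, 9.44% and 13.9% in N2. The *daf-1* and N2 shares overlapped, and replicate 3 had the highest share in each genotype. The mean log2 level of the 4 contractile members minus that of *unc-54*, *myo-3*, *pat-10* and *unc-27* was -2.72, -2.74 and -2.31 in *daf-1*, -3.08, -3.0 and -1.96 in the double mutants and -3.19, -3.13 and -2.59 in N2. Batch for batch, *daf-1* stood above N2 each time, by less than the gap between batch 3 and the other 2 batches within N2.

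**Figure D4:**
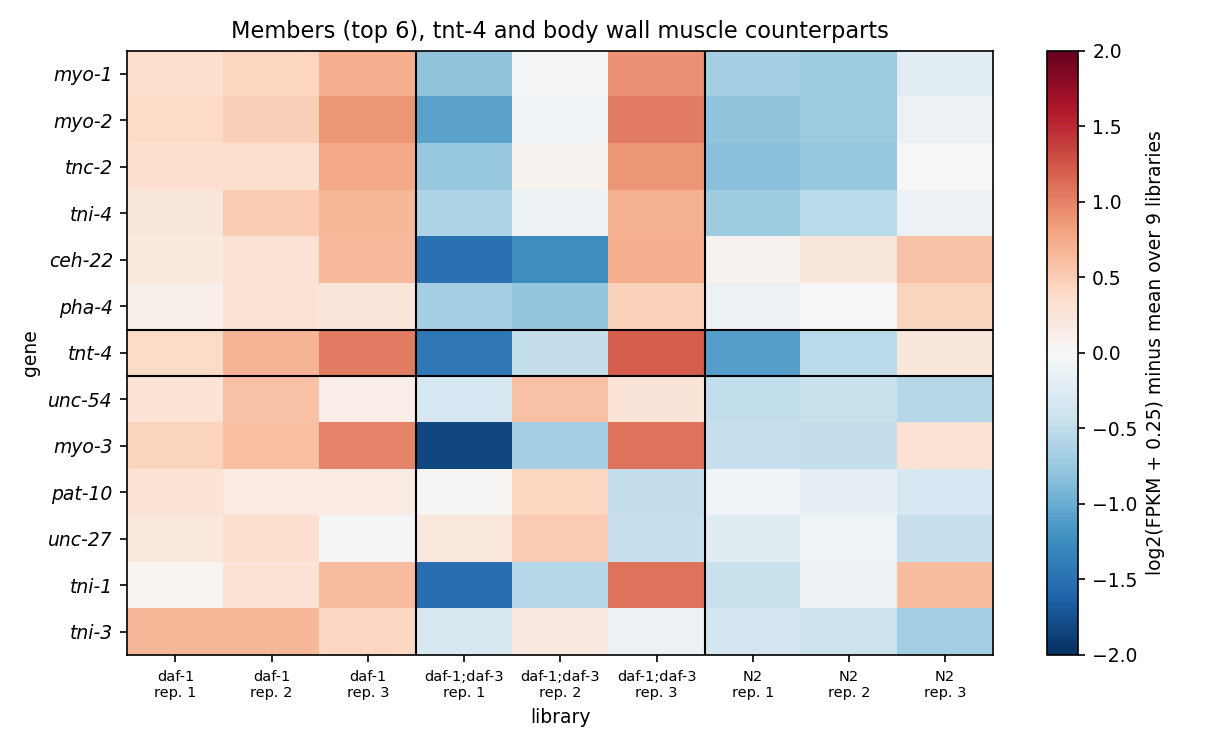
Heat map of log2(FPKM + 0.25) minus each gene's mean over 9 libraries (color scale from -2 to 2), with libraries in columns by genotype and genes in rows: the 6 members on top, then *tnt-4*, then body wall muscle counterparts. The contractile members are above their mean in all *daf-1* libraries and in double mutant replicate 3; *ceh-22* and *pha-4* are below it in double mutant replicates 1 and 2, and *pat-10* and *unc-27* run low in double mutant replicate 3, where the members run high.

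The wider list of pharyngeal contractile genes, chosen with earlier results in view, held 9 genes including the 4 members. All 9 passed as higher in *daf-1* than in N2 with 8 libraries (5 DEGs, median log2 fold change 1.01, against a median of 0.02 over all entries). Of the 9, 5 passed as higher in *daf-1* than in the double mutants, and 1 was higher in the double mutants than in N2. The shares over all entries were 13%, 17.7% and 7.49%. *tnt-4*, a pharyngeal troponin T gene, had 46.5, 57.1 and 73.4 FPKM in *daf-1*, 13, 25.6 and 82.2 FPKM in the double mutants and 16.3, 24.4 and 41.5 FPKM in N2, and was a DEG in *daf-1* against N2 (1.18, SE 0.35, adjusted p = 0.0394) and against the double mutants (1.65, SE 0.40, adjusted p = 0.0163). The essential myosin light chain gene *mlc-3*, also used in body wall muscle, was the 1 gene that passed in the double mutants over N2 (0.55, SE 0.16, adjusted p = 0.0475). *mlc-1* and *mlc-2* are near-identical copies whose reads may be split between them, so their values (0.72 and 0.70 in *daf-1* against N2) are uncertain. *mlc-1*, *mlc-2* and *mlc-3* averaged 407, 876 and 576 FPKM in *daf-1*, against 74.1 FPKM for *tni-4*, the highest member there. The part of these light chain levels that came from muscle outside the pharynx was not measured. The count of 9 is therefore not a count of measures of the pharynx alone. With 9 libraries 3 of the 9 passed in *daf-1* against N2, and none in the other comparisons, where the limma counts at an unadjusted p below 0.05 were 0 against the double mutants and 3 for double mutants over N2. With the batch as a block in the 9 libraries, all 9 passed in *daf-1* against N2 (5 DEGs), none against the double mutants, and 2 as higher in the double mutants than in N2.

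Of 30 body wall sarcomere genes, 13 passed as higher and none as lower in *daf-1* against N2, with a median log2 fold change of 0.51. Against the double mutants 10 were higher and 1 lower in *daf-1*. Over all entries 13% were higher and 15.6% lower against N2, and 17.7% and 19.3% against the double mutants. When all 9 libraries were used, 6 passed as higher in *daf-1* against N2, and none passed against the double mutants (limma), where 4 were higher at an unadjusted p below 0.05. The summed level of these genes was 7049 to 8322 FPKM in *daf-1*, 6413 to 8141 FPKM in double mutant replicates 1 and 2, and 5663 to 6240 FPKM in N2. The 4 actin genes on that list are close copies, and their split is uncertain.

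Genes for the excitability of pharyngeal muscle were mixed. Of 12, 2 were higher and 1 lower in *daf-1* than in N2, close to the shares over all entries (13% and 15.6%). *avr-15*, a glutamate-gated chloride channel subunit, was higher (0.51, SE 0.12, adjusted p = 0.0206), and *eat-2*, a nicotinic receptor subunit needed for fast pumping, was higher at a low level (0.53 to 0.94 FPKM in *daf-1* and 0.20 to 0.36 FPKM in N2, adjusted p = 0.0354). The innexin gene *inx-3* was lower (-0.56, SE 0.11, adjusted p = 0.0125). Against the double mutants 6 were higher in *daf-1*, beside 17.7% of all entries, among them the calcium channel gene *egl-19* (1.0, SE 0.28, adjusted p = 0.0264). The calcium channel gene *unc-2* (-1.17, adjusted p = 0.0449) and *inx-3* (-0.64, adjusted p = 0.0116) were lower in the double mutants than in N2, beside 8.9% of all entries. In the fit of 9 libraries 1 was higher and 1 lower in *daf-1* than in N2, and none passed against the double mutants, at an unadjusted limma p below 0.05 either.

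The list of pharynx development regulators had 18 genes, both regulator members among them, of which 16 were tested. In *daf-1* against N2 none was higher and 1 was lower, the germline and early embryo receptor gene *glp-1* (-0.33, SE 0.10, adjusted p = 0.0377), with a median of -0.05. In the double mutants 7 of 16 were lower than in N2 and none higher (median -0.84), beside 8.9% and 7.49% of all entries. *daf-1* exceeded the double mutants for 9 and was lower for 2, beside 17.7% and 19.3% of all entries. *eya-1*, a transcriptional cofactor, was lower in the double mutants than in N2 (log2 fold change -1.02, SE 0.11, adjusted p = 0.000723), its partner homeodomain gene *ceh-34* too (-1.19, SE 0.20, adjusted p = 0.00608), and the T-box gene *tbx-2* likewise (-0.86, SE 0.14, adjusted p = 0.00594). The direction seen for *ceh-22* and *pha-4* was thus present in 5 further genes of the list in those libraries. With 9 libraries 0 of 17 tested passed in any comparison (limma), and at an unadjusted p below 0.05 none was higher and 2 were lower in *daf-1* than in N2, 1 was higher and 3 were lower in *daf-1* than in the double mutants, and 1 was lower in the double mutants than in N2.

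Other lists were low in the same double mutant libraries as the regulators. Of 13 molting genes, 9 were lower in the double mutants than in N2 and 1 was higher in *daf-1* than in N2, beside 8.9% and 13% of all entries. Their summed level was 736 to 869 FPKM in *daf-1*, 213 to 247 FPKM in double mutant replicates 1 and 2 and 1056 FPKM in replicate 3, and 578 to 993 FPKM in N2, with none of these genes at 0 in any library. Pharyngeal gland genes (3 of 9 lower in the double mutants than in N2, 6 of 9 higher in *daf-1* than in the double mutants) and pharyngeal cuticle genes (4 and 11 of 12) had the same low libraries. The shares over all entries were 8.9% and 17.7%. Unlike the regulators, 2 of 9 gland genes (median log2 fold change 0.98) and 5 of 12 cuticle genes (all DEGs, median 1.51) passed as higher in *daf-1* against N2, and with all 9 libraries 1 and 3 did. The gland sum was 462 to 584 FPKM in *daf-1*, 149 to 225 FPKM in double mutant replicates 1 and 2 and 177 to 288 FPKM in N2, and the cuticle sum was 230 to 377 FPKM in *daf-1*, 74.7 to 78 FPKM in those double mutants and 101 to 287 FPKM in N2. A single gene, *dod-6*, made up most of the gland sum. It averaged 427 FPKM in *daf-1*, 161 FPKM in those double mutants and 181 FPKM in N2, where the mean gland sums were 534, 187 and 226 FPKM. The cuticle sum includes an entry that joins *abu-13* to *flap-1*, which made up most of it in those double mutants. This joined entry had 69.0 to 75.5 FPKM in *daf-1*, 56.1 to 61.4 FPKM in those double mutants and 61.6 to 78.1 FPKM in N2. With all 9 libraries no gene of the molting or gland list, and none of the cuticle list, passed between double mutants and N2 (limma), and at an unadjusted p below 0.05 there were 2 higher and 2 lower molting genes and 0 of the gland and cuticle lists. The pharyngeal cuticle genes *abu-6*, *abu-7* and *abu-15* were listed at 0 in 1 or more libraries. The part of the molting, gland and cuticle levels in those of the 6 members was not tested.

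Germline genes moved the other way from the contractile genes. Of 13, 7 were lower in *daf-1* than in N2 and all 13 lower than in the double mutants, beside 15.6% and 19.3% of all entries. Summed levels were 3646 to 3982 FPKM in *daf-1*, 5242 to 5567 FPKM in double mutant replicates 1 and 2 and 3830 FPKM in replicate 3, and 4131 to 5033 FPKM in N2. The entries of *cgh-1*, *rec-8*, *oma-1*, *mex-3*, *glh-4*, *puf-8* and *fbf-2* are joined to other genes, so their values are not of germline genes alone. In *daf-1* the entry joining *cgh-1* to *clk-2* and *cux-7* had 1203 to 1297 FPKM. The entry joining *rec-8* to *agt-1* and *rla-2* had 615 to 741 FPKM there. None was at 0, and with all 9 libraries 3 passed as lower in *daf-1* than in N2 and 0 against the double mutants (limma), where 5 were lower at an unadjusted p below 0.05. Of 12 neuronal genes, 3 exceeded N2 in *daf-1*, beside 13% of all entries. Their sums were 508 to 553 FPKM in *daf-1*, 487 to 527 FPKM in double mutant replicates 1 and 2, and 419 to 504 FPKM in N2. Of 7 intestinal genes tested, 3 were higher and 1 lower in *daf-1* than in N2, of 6 yolk genes 1 was lower, of 11 early embryo regulators 3 were lower, and of 5 body wall muscle regulators 1 was lower, beside 15.6% of all entries. The part of the germline, neuronal and body wall levels in the contractile differences was not tested.

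The profiles over all 9 libraries were compared by the root mean square difference of centred log2 values, a description in which all genes share the same libraries and batches. Among 12043 entries with 1 gene name, *tnc-2* ranked 2 in likeness to *myo-1* (0.104), *myo-2* ranked 5 (0.122) and *tni-4* ranked 6 (0.13), while *pha-4* ranked 2431 (0.513) and *ceh-22* ranked 5426 (0.676). The 3 nearest profiles to *myo-1* were *F49B2.6* (0.0863), *tnc-2* and the intermediate filament gene *ifd-1* (0.104). For *myo-2* they were *myo-5* (0.092), a further myosin heavy chain gene, then *myo-1* and *ifd-1* (0.124). The nearest to *tnc-2* were *myo-1*, *ZK180.7* (0.109) and *F49B2.6* (0.11), and to *tni-4* they were *C53C9.2* (0.0977), *Y34B4A.4* (0.0985) and *unc-96* (0.121). For the regulators the nearest were other genes: *prkl-1* (0.0914), *dex-1* (0.104) and *ltd-1* (0.134) for *ceh-22*, and *frm-2* (0.0626), *T25D10.4* (0.0692) and *C14H10.2* (0.0714) for *pha-4*.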

How the data were processed

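RNA-seq of 9 whole-worm samples (3 each of *daf-1*, *daf-1*; *daf-3* and N2) was used. The authors trimmed reads (Trim Galore 0.4.0), aligned them to WBcel235 with TopHat2 2.0.12 and estimated FPKM per gene with Cufflinks, per the labels; these deposited FPKM values hold no counts, so depth and counting error are unknown. Of 40313 entries, 186 named no gene and were left out; 13751 (8 libraries) or 13907 (9 libraries) reached 0.5 FPKM in at least 2 libraries. log2(FPKM + 0.25) was fitted with limma 3.58.1 (R 4.3.3), all genotypes in 1 fit, with a variance trend and Benjamini-Hochberg adjustment over all tested entries, after a check on simulated data. Following the study, *daf-1*; *daf-3* replicate 3 was left out of the 8. Because Cuffdiff cannot be run on FPKM, limma took its place.

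The members were given by name, and members and gene lists were chosen with earlier results of these data known. Some list genes had only an entry joined to other genes, and such entries were kept in the list counts and sums. Genes of joined entries in the cuticle and germline lists, and *dod-6*, were named after their values were seen. Beyond the members, the text names their body wall counterparts, *tnt-4*, up to 3 genes of each list with the smallest p and the 3 nearest profiles of each member, plus *mlc-1*, *mlc-2*, *egl-19*, *glp-1*, the *abu* genes at 0 and *myo-5*, named after their values were seen. The permutation test planned for the muscle ratio is not given, since it would test a score over the members. The study calls its replicates batches and does not state that equal numbers were handled together across genotypes. Pairing by number is thus an assumption of the within-batch differences and the block. Deviations of *daf-1* and N2 libraries of the same number correlated at 0.189, 0.124 and 0.225 across entries. Those of the double mutants correlated with N2 at -0.06 and 0.01 and with *daf-1* at 0.04 and 0.03. Coordinates and exons are from the Ensembl annotation of WBcel235. Alternatives were other library sets, leave-one-out, batch block, pseudocount, filter, scaling and variance model.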

Additional observations from a re-analysis of the deposited data

Results flagged for a closer look

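In *daf-1*; *daf-3* replicate 3, a library outside the comparisons of 8 libraries, each of the 6 genes was above the highest N2 library. How many of all entries were above it there was not counted. *myo-1* had 27.9 FPKM there, against 12.7 FPKM in the highest N2 library, and *myo-2* had 37.9 against 17 FPKM. *tnc-2* had 34.3 against 18.4 FPKM and *tni-4* had 86.9 against 48.9 FPKM. The regulators exceeded it by less, *ceh-22* at 7.01 against 6.32 FPKM and *pha-4* at 48.3 against 48.1 FPKM. This was not particular to the 6 genes. The mean centred log2 level there was also above every N2 library for neuronal genes (0.60 against at most 0.08) and molting genes (0.70 against at most 0.54). It was below every N2 library for germline genes (-0.21 against at least -0.02) and yolk genes (-0.95 against at least -0.17).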

How the results depend on the processing

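Of the log2 fold changes of the 6 members recomputed under the alternatives, 313 kept their direction and side of the threshold, 44 lost and 3 gained the call, and 18 reversed, all of the last for values that had not passed. TPM scaling, quantile and median-ratio scaling, pseudocounts of 0.1 and 1, both filters and the replicate block left the numbers of members passing at 4 (*daf-1* against N2), 5 (*daf-1* against the double mutants) and 2 (double mutants against N2).

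With all 9 libraries, members passing were 0 in *daf-1* against N2, 0 against the double mutants and 0 for double mutants against N2, with 0, 0 and 0 DEGs; entries passing were 1295, 232 and 637 (3927, 5095 and 2254 with 8) and DEGs 641, 163 and 395 (993, 1740 and 1224). With the replicate block and all 9 libraries, 4, 0 and 0 members passed, with 0 DEGs in each comparison with the double mutants, 2555, 364 and 799 entries passed, and DEGs were 205 against the double mutants and 434 for double mutants against N2. The block in 8 libraries left 1 member DEG against the double mutants. Replicates 1 and 2 alone gave 3 members and 1 DEG against the double mutants, and 1770, 3168 and 1334 entries. TPM gave 5 and 2 member DEGs against the double mutants and for double mutants against N2, and moved the median of all entries to 0.24 and -0.21. Pseudocount 1 gave 1 member DEG against N2 and 1153 DEG entries against the double mutants. Without the variance trend 2532 entries passed in *daf-1* against N2 and *tnc-2* missed (adjusted p = 0.0582), and with only the 2 genotypes compared 1424 passed for double mutants against N2. The cause of these changes was not tested.

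The share of passing entries that were higher was 45.4%, 47.8% and 45.7%, against 44.6%, 88.1% and 19.7% with TPM and 60%, 58.5% and 45.5% without the trend. The muscle difference with 9 libraries was 0.091 for *daf-1* minus double mutants and 0.29 for double mutants minus N2.

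Reversed values were -0.22 for *ceh-22* in *daf-1* against N2 with quantile scaling and, for double mutants against N2, -0.12 for *myo-1*, -0.048 for *tnc-2* and -0.14 for *tni-4* with TPM, and for *myo-2* 0.51 with 9 libraries (also with the block), 0.19 with replicates 1 and 2, 0.16 with the block and 0.027 with quantile scaling. Leaving out 1 library, *ceh-22* in *daf-1* against N2 ranged over -0.051 to 0.23 and *pha-4* over -0.021 to 0.26, and double mutants against N2 over -0.28 to 0.51 (*myo-1*), -0.52 to 0.47 (*myo-2*), -0.22 to 0.60 (*tnc-2*) and -0.15 to 0.36 (*tni-4*). Members passing then ranged over 0 to 4, 2 to 6 and 1 to 2, member DEGs over 0 to 4, 1 to 5 and 1 to 1, entries passing over 1179 to 5185, 823 to 5545 and 1198 to 2211, and DEGs over 620 to 1377, 593 to 2052 and 825 to 1374, for *daf-1* against N2, *daf-1* against the double mutants and double mutants against N2. The contractile minus regulator difference ranged over 0.88 to 0.98, -0.76 to -0.05 and 0.99 to 1.70, and the muscle difference over 0.24 to 0.57, 0.31 to 0.52 and -0.18 to 0.12. FPKM hold no counts, so what depth limits cannot be given, and the double mutants rest on 2 libraries.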
